A study of Homo sapiens with 6 samples.

Results

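The miR-148 and miR-152 family consists of the 6 mature arms made from the precursors of miR-148a, miR-148b and miR-152, and its members were taken by name: hsa-miR-148a-3p, hsa-miR-148a-5p, hsa-miR-148b-3p, hsa-miR-148b-5p, hsa-miR-152-3p and hsa-miR-152-5p. They are 6 of the 1582 miRNAs in the count table, and all 6 were among the 506 miRNAs with enough counts to be tested. The small RNA libraries came from MDA-MB-231, a human triple-negative breast cancer cell line of mesenchymal type. RARαS77A is a retinoic acid receptor alpha in which serine 77 is replaced by alanine, so that it cannot be phosphorylated there, and 3 libraries of cells given lentiviral RARαS77A were set against 3 libraries of non-transfected cells of the same line. The controls carried neither an empty vector nor wild-type RARα, so the virus, the amount of receptor and the mutation cannot be told apart. No drug is named for either group. The sources used here do not tell whether the libraries of a group came from separate cultures, so p-values measure only the spread between these libraries, which may be technical.

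A miRNA precursor is a hairpin whose stem is cut into a 5p and a 3p arm. One arm, the guide, is usually kept in Argonaute and pairs with messenger RNAs through its seed, while the other, the passenger, is mostly degraded. In this family the 3p arms are the guides. They are known for repressing the DNA methyltransferase DNMT1 and the immune-tolerance molecule HLA-G, and loss of the family through promoter methylation has been described in breast and other cancers.

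The guides are shown because they share a seed and differ elsewhere by few bases, so that they can pair with much the same messages yet can be counted apart. Capitals mark the seed, bases 2 to 8 from the 5′ end, and the sequences are those of RefSeq on GRCh38.p14.
hsa-miR-148a-3p: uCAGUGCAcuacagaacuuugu
hsa-miR-148b-3p: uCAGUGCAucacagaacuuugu
hsa-miR-152-3p: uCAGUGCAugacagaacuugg
Counted from the 5′ end, miR-148b-3p differs from miR-148a-3p by C9U and U10C. The substitutions from miR-148a-3p to miR-152-3p are C9U, U10G and U20G over the 21 positions they share, and those from miR-148b-3p to miR-152-3p are C10G and U20G. All of these lie outside the seed. Among 2370 mature human miRNA names in the RefSeq table, these 3 guides alone have these 7 seed bases. The sources used here do not give how reads that match more than 1 guide were assigned, and a shift of reads between guides was not tested.

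The passenger arms with an entry in that table are shown for the same comparison, again with bases 2 to 8 in capitals.
hsa-miR-148b-5p: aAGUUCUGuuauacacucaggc
hsa-miR-152-5p: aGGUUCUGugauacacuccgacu
Their seeds differ from each other through A2G, and they further differ by U10G, A19C and G21A. The passenger arms of the family therefore do not form a single seed group as the guides do.

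The 3 genes lie on different chromosomes. MIR148A occupies chr7:25949919-25949986 on the minus strand, inside no gene annotated in GENCODE 29, with the nearest protein-coding gene, NFE2L3, 202254 bp away. MIR148B occupies chr12:54337216-54337314 on the plus strand, within an intron of COPZ1 in all 17 of its transcripts that span the site, and within the overlapping transcript AC078778.2. MIR152 occupies chr17:48037161-48037247 on the minus strand, within an intron of COPZ2 in the 3 transcripts that span it. COPZ1 and COPZ2 encode the zeta subunits of the COPI vesicle coat and run on the same strand as the miRNA they hold. The nearest other miRNA gene was MIR196B, 1219494 bp away, for MIR148A, MIR3198-2, 105740 bp away, for MIR148B and MIR1203, 119180 bp away, for MIR152. The hairpins below are printed 5′ to 3′ on the strand of the gene, with capitals for the arms that have an entry in the RefSeq table. miR-148a-5p was measured but has no entry there, so its stretch of MIR148A is not in capitals.
MIR148A: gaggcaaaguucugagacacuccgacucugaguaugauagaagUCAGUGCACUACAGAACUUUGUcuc
MIR148B: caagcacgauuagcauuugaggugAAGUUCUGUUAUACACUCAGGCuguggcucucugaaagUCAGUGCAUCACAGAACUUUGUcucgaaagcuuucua
MIR152: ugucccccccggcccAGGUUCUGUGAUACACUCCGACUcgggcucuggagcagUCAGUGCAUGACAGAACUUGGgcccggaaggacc

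The libraries held between 9019266 and 11338580 counts. The line's abundant miRNAs miR-21-5p, miR-100-5p, miR-221-3p and miR-222-3p together took from 607184 to 706284 TPM (here the count divided by the library's total, on the TPM scale), while the epithelial miR-200 family and miR-141 summed to 87.5 to 125 TPM. Control replicate 3 stood apart from the other controls in a set of miRNAs typical of pluripotent stem cells, miR-302a to miR-302d and miR-367. Their summed counts were 2, 1 and 2973 in control replicates 1, 2 and 3, and 2162, 2219 and 2212 in the RARαS77A libraries. All 5 had a count in control replicate 3 and in each RARαS77A library, and 1 of 5 had a count in each of the other controls. In this respect control replicate 3 went with the RARαS77A libraries rather than with its own label, so the log2 fold changes, ratios, shares and sums of the family are given below also without it. Muscle miRNAs summed to 986 counts in control replicate 1 and to 30 to 49 in the others, and the liver miRNA miR-122-5p had from 99 to 527 counts. Blood miRNAs summed to 193 to 426 counts, with miR-144-3p at 0 in 4 libraries. Of the miRNAs typical of endocrine cells, miR-375-3p had 870 counts in control replicate 2 and 19 to 54 in the others. The other, miR-7-5p, had 53721 to 61962 counts in control libraries and 80402 to 92056 in RARαS77A libraries and was called higher (log2 fold change 1.21, edgeR adjusted p = 0.000365). The part of these miRNAs in the family's values was not tested.

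With TMM scaling, which corrects library sizes for differences in composition, both arms of miR-148a rose in RARαS77A cells. The rise was 3.38-fold for the guide and 3.09-fold for the passenger, and 2.26-fold and 2.09-fold with scaling by total counts alone. The other guides, miR-148b-3p and miR-152-3p, did not pass the test with TMM scaling, and their direction depended on the scaling. Free of any scaling, miR-148a-3p accounted for 32.5% ± 4.75 of the family's guide counts in the controls and for 63.2% ± 5.71 with RARαS77A (mean ± SD of 3 libraries each). The passenger arms miR-148b-5p and miR-152-5p were called higher with small margins. In all, 4 of 6 arms were called higher and 0 lower at an adjusted p under 0.05 by edgeR's quasi-likelihood test with TMM scaling. Over all 506 miRNAs, 23.3% were called higher and 21.1% lower. At an unadjusted p under 0.05, 0 arms were lower by edgeR with TMM, DESeq2 and limma-voom, where 25.3%, 25.5% and 26.3% of all miRNAs were. By edgeR with total-count scaling 2 arms were lower at that limit, miR-148b-3p and miR-152-3p, so this count depended on the scaling. The share of all miRNAs lower at an unadjusted p was not computed for that scaling. At an adjusted p under 0.05 it called 1 arm, miR-148b-3p, lower, and 42.1% of all miRNAs. DESeq2 called 3 arms higher, with 22.3% of all miRNAs called higher, and limma-voom 4, with 27.3%. The calls for the arms of miR-148a held without each library in turn, whereas the count of arms called higher was 3 without RARαS77A replicate 3 and 2, the arms of miR-148a, without any other single library. The share of all miRNAs called was not computed for the fits without a library, so a general loss of calls cannot be told apart.

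**Figure D1:**
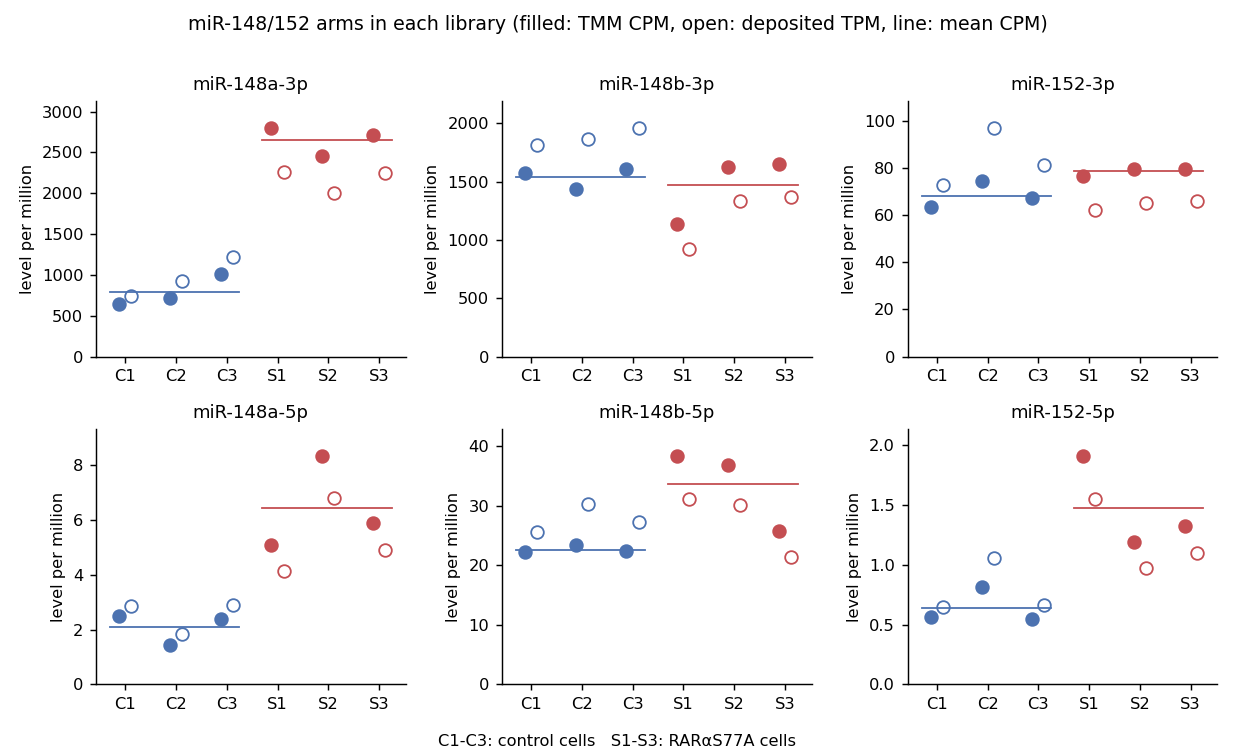
Each panel plots 1 arm, with the library on the horizontal axis (C1 to C3 control, S1 to S3 RARαS77A) and its scaled level on the vertical axis, as TMM-scaled CPM (filled) and as deposited TPM (open); lines mark the mean CPM of each group. The RARαS77A points of both miR-148a arms lie above all control points on both scales, and those of miR-148b-3p overlap the controls in CPM but lie below them in TPM.

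Among the guides, miR-148a-3p had 7954, 10465 and 11023 counts in the control libraries and 21961, 20591 and 22504 in the RARαS77A libraries. In CPM, the counts brought to a common library size, after TMM scaling these were 638, 711 and 1007 against 2793, 2452 and 2709. Every RARαS77A library was thus above every control, and control replicate 3 was the highest control. The mean was 785 ± 195 CPM in the controls and 2651 ± 178 CPM with RARαS77A (± SD, n = 3 per group). This is a log2 fold change of 1.76 (SE 0.17, 95% interval 1.35 to 2.16, edgeR adjusted p = 0.000269). With total-count scaling the log2 fold change was 1.18 (edgeR adjusted p = 0.00144). By size of the TMM-scaled log2 fold change miR-148a-3p stood at place 20 from the top of 506. By count it moved from places 57, 53 and 48 among the miRNAs of the control libraries to places 30, 35 and 30 in the RARαS77A libraries.

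Control replicate 3 was the highest control for miR-148a-3p as for the counts of pluripotency miRNAs, and the part of whatever set it apart was not tested. Without control replicate 3 the log2 fold change of miR-148a-3p was 1.92 (edgeR adjusted p = 3.94e-06). With control replicate 3 as the only control it was 1.43 with TMM scaling, a value that rests on that 1 control library. In deposited TPM the mean of the RARαS77A libraries was 1.78-fold the level in control replicate 3. On both scales the guide was higher in the RARαS77A libraries than in this 1 control library.

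The passenger miR-148a-5p was far rarer. It had 31, 21 and 26 counts in control libraries and 40, 70 and 49 in RARαS77A libraries, or 2.49, 1.43 and 2.38 CPM against 5.09, 8.34 and 5.90 CPM. The groups did not overlap. Its log2 fold change was 1.63 (SE 0.29, 95% interval 0.96 to 2.30, edgeR adjusted p = 0.00313), close to that of the guide from the same hairpin. With total-count scaling it was 1.06 (edgeR adjusted p = 0.0127). Without control replicate 3 the TMM-scaled value was 1.67, and against that library alone 1.46.

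miR-148b-3p, the guide with the most counts in control cells, had 19642, 21139 and 17648 counts there and 8935, 13664 and 13723 counts in RARαS77A cells. After TMM scaling the levels were 1575, 1437 and 1612 CPM in control cells and 1136, 1627 and 1652 CPM in RARαS77A cells. RARαS77A replicate 1 was the lowest of the 6 libraries, and the other RARαS77A libraries were slightly above all controls. The log2 fold change was -0.07 (SE 0.15, 95% interval -0.42 to 0.28, edgeR adjusted p = 0.725). In deposited TPM, which divides by the total count alone, the levels were 1818, 1864 and 1957 in control cells and 922, 1331 and 1370 in RARαS77A cells, and the groups did not overlap. With total-count scaling edgeR gave a log2 fold change of -0.64 (adjusted p = 0.0101), so whether this guide was called lower rested on the scaling. Without control replicate 3 the TMM-scaled value was -0.09.

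miR-152-3p, the guide with the fewest counts, had 789, 1098 and 735 counts in control cells and 603, 668 and 661 in RARαS77A cells. The TMM-scaled levels were 63.3, 74.6 and 67.1 CPM against 76.7, 79.5 and 79.6 CPM, whereas the deposited TPM were 73.0, 96.8 and 81.5 against 62.2, 65.1 and 66.0. The groups did not overlap on either scale, yet the RARαS77A libraries were above the controls on the first and below them on the second. Its log2 fold change was 0.20 with TMM scaling (95% interval -0.10 to 0.50, edgeR adjusted p = 0.232) and -0.38 with total-count scaling (adjusted p = 0.0780), and it passed the test under neither. Without control replicate 3 the TMM-scaled value was 0.13.

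The passenger miR-148b-5p had 276, 343 and 245 counts in control cells and 301, 309 and 214 in RARαS77A cells. Its TMM-scaled levels were 22.1, 23.3 and 22.4 CPM against 38.3, 36.8 and 25.8 CPM, with no overlap. The log2 fold change was 0.57 (SE 0.19, edgeR adjusted p = 0.0471), just inside the threshold. It was -0.01 with total-count scaling (adjusted p = 0.975) and 0.51 without control replicate 3 (adjusted p = 0.101), so the call was lost in both. The call also failed without any other single library except RARαS77A replicate 3, with adjusted p from 0.0680 to 0.168.

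miR-152-5p was close to the limit of detection, with 7, 12 and 6 counts in control cells and 15, 10 and 11 in RARαS77A cells. These are 0.561, 0.816 and 0.548 CPM against 1.91, 1.19 and 1.32 CPM. The scaled groups did not overlap although the counts did. The log2 fold change was 1.16 (SE 0.38, edgeR adjusted p = 0.0422), and the call was lost with total-count scaling (0.59, adjusted p = 0.253), with DESeq2 (1.16, adjusted p = 0.196) and without any 1 of the 6 libraries. Without control replicate 3 it was 1.02 (adjusted p = 0.114).

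The TMM factors, by which the total counts are multiplied, were 1.15 to 1.30 in control libraries and 0.811 to 0.830 in RARαS77A libraries. The median log2 fold change of all 506 miRNAs was 0.06 with TMM and -0.51 with total counts. A change of scaling moves the log2 fold changes of all miRNAs by nearly the same amount. Measured from the median of each scaling, the values of an arm must therefore come close together, which is no separate result. With TMM and total counts they were 1.69 and 1.69 for miR-148a-3p, 1.57 and 1.57 for miR-148a-5p, and -0.13 and -0.13 for miR-148b-3p. For miR-152-3p they were 0.14 and 0.13, for miR-148b-5p 0.51 and 0.50, and for miR-152-5p 1.10 and 1.10. With total-count scaling 2 arms, those of miR-148a, were called higher and 1, miR-148b-3p, lower, where 10.1% of all miRNAs were called higher and 42.1% lower. The TMM-scaled groups did not overlap for 5 of 6 arms, all with RARαS77A above, and for 58.1% of all miRNAs tested. In deposited TPM they did not overlap for 4 arms, the 2 of miR-148a above and miR-148b-3p and miR-152-3p below, where 62.3% of all miRNAs tested did not overlap. On both scales so many miRNAs had groups without overlap that these counts do not set the family apart.

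A ratio of 2 counts within 1 library is free of the scaling between libraries. Adapter ligation favours some small RNAs over others, so the shares below describe counts, not molecules, and the comparison is that of the same ratio in different libraries. In control libraries there were 0.405, 0.495 and 0.625 counts of miR-148a-3p for each count of miR-148b-3p. In RARαS77A libraries there were 2.46, 1.51 and 1.64. The ratio was thus below 1 in every control library and above 1 in every RARαS77A library, with no overlap. The difference was 1.87 on the log2 scale (SE 0.28), or 3.65-fold, with a two-sided exact permutation p of 0.1, the smallest that 3 against 3 libraries allow, and 0.2 after Benjamini-Hochberg adjustment over 6 ratios, so it could not have passed a threshold of 0.05. It was 2.03 without control replicate 3 and 1.55 against control replicate 3 alone.

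As shares of the family's guide counts, miR-148a-3p took 28.0%, 32.0% and 37.5% in the control libraries and 69.7%, 59.0% and 61.0% in the RARαS77A libraries. Counting error was small beside this, the 95% Wilson interval being 27.5% to 28.5% in control replicate 1 and 69.2% to 70.2% in RARαS77A replicate 1, and such intervals cover counting error only. The mean share of miR-148b-3p was 64.6% ± 4.59 in the controls and 34.9% ± 5.74 with RARαS77A (± SD, n = 3 per group). That of miR-152-3p was 2.88% ± 0.438 and 1.87% ± 0.0702, so its part was small throughout. The mean shares in control replicates 1 and 2 alone were 30.0% for miR-148a-3p, 66.9% for miR-148b-3p and 3.07% for miR-152-3p.

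The ratio of miR-148a-3p to miR-152-3p was 10.1, 9.53 and 15.0 in control cells and 36.4, 30.8 and 34.0 in RARαS77A cells, again without overlap. The difference was 1.58 on the log2 scale (SE 0.22, exact permutation p = 0.1, 0.2 after adjustment), 1.78 without control replicate 3 and 1.17 against control replicate 3 alone. The ratio of miR-148b-3p to miR-152-3p overlapped between the groups, with a log2 difference of -0.29 (SE 0.20, exact permutation p = 0.3, 0.36 after adjustment), or -0.25 without control replicate 3. Among the 3 guide ratios, those holding miR-148a-3p were therefore the ones without overlap. They share that guide and so are not separate observations. How often ratios of other miRNA pairs lack overlap was not computed, and the TMM-scaled groups did not overlap for 58.1% of all miRNAs tested.

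Summed over the 3 guides, which carry the same seed, the family had 2276, 2223 and 2686 CPM in control cells and 4006, 4158 and 4441 CPM in RARαS77A cells after TMM scaling, a 1.75-fold ratio of the means. In deposited TPM the sums were 2627, 2884 and 3260 against 3249, 3401 and 3684, a 1.18-fold ratio in which RARαS77A replicate 1 lay below control replicate 3. Leaving out control replicate 3, the ratios were 1.87-fold and 1.25-fold. The sum is given as a description, and its size depended on the scaling, which by construction cannot change the shares.

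Guide and passenger of 1 hairpin come from the same precursor, so their ratio shows whether the arms moved by the same factor. For miR-148a the 3p arm outnumbered the 5p arm 253, 487 and 416 times in control cells and 542, 292 and 455 times in RARαS77A cells. The groups overlapped, with a log2 difference of 0.16 (SE 0.39, exact permutation p = 0.6). For miR-148b the ratios were 71.0, 61.5 and 71.9 against 29.6, 44.2 and 64.0, which overlapped, with a log2 difference of -0.64 (SE 0.33, exact permutation p = 0.2, 0.3 after adjustment). For miR-152 they were 105, 87.9 and 113 against 38.9, 63.7 and 57.5, which did not overlap, with a log2 difference of -0.96 (SE 0.24, exact permutation p = 0.1, 0.2 after adjustment), but these rest on 6 to 15 counts of the 5p arm. Leaving out control replicate 3, the differences were 0.25 for miR-148a, -0.60 for miR-148b and -0.88 for miR-152.

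The shape of a guide's profile over the 6 libraries was compared with that of the other tested miRNAs by the root mean square distance between log2 CPM values, each profile being centred on its own mean. Of the 506 miRNAs, 12 were at 0 in some library and had no such profile. miR-148b-3p and miR-152-3p were 0.244 apart, and miR-148a-3p was 0.975 from the first and 0.818 from the second. The profiles closest to miR-148a-3p were those of miR-3690 (distance 0.183, log2 fold change 2.09), miR-449c-5p (0.189 and 1.39) and miR-589-5p (0.232 and 1.90). Closest to miR-148b-3p were miR-16-2-3p (distance 0.0582), miR-18a-3p (0.0837) and miR-625-5p (0.128), and closest to miR-152-3p were miR-584-5p (0.0549), miR-339-3p (0.0609) and miR-27a-3p (0.0647). With 0.5 CPM added before the logarithm, miR-659-5p and miR-4661-5p took the places after miR-3690, and miR-142-3p took that of miR-625-5p, so the neighbours depended in part on how rare miRNAs were handled.

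A seed shifted by 1 base, in which bases 2 to 7 equal bases 3 to 8 of the family's guides, occurs in 6 mature miRNAs of the RefSeq table, and 4 of them were measured. They are shown because they carry the core of the same seed, with the shared bases in capitals.
hsa-miR-130b-3p: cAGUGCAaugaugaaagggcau
hsa-miR-301a-3p: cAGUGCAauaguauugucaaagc
hsa-miR-301b-3p: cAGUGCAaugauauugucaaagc
hsa-miR-454-3p: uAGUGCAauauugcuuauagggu
With TMM scaling edgeR called 0 of the 4, where it called 23.3% of all miRNAs higher and 21.1% lower. At an unadjusted p under 0.05 it had 2 of the 4 lower, miR-130b-3p and miR-301a-3p, and 25.3% of all miRNAs. DESeq2 and limma-voom called 1 each lower, miR-130b-3p, where they called 22.7% and 21.1% of all miRNAs lower. The edgeR log2 fold changes of the 4 were -0.66 for miR-130b-3p (adjusted p = 0.0540), -1.16 for miR-301a-3p (0.0533), 0.19 for miR-301b-3p (0.412) and -0.09 for miR-454-3p (0.676). With total-count scaling 3 of the 4, all but miR-301b-3p, were called lower, as were 42.1% of all miRNAs. The median of these 4 was -0.38 with TMM. The RefSeq table lacks some measured arms, such as miR-148a-5p, so the 6 may not be all the miRNAs with this shifted seed. miR-130a-3p, named alongside miR-130b-3p, is not among the 6, which does not show that it lacks this seed. It was measured, with a log2 fold change of 0.31 (edgeR adjusted p = 0.122), and is not part of the counts and median above.

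Other miRNAs have been described as directed at DNA methyltransferases. Of 10 listed, 9 were measured and tested, and 2 were called higher and 3 lower, with 4 not called. Beside the 23.3% and 21.1% of all miRNAs called higher and lower, these counts are no result about the list. Its median log2 fold change was -0.37, against 0.06 for all miRNAs tested. miR-126-3p, known from endothelial cells, rose by 1.26 on the log2 scale (edgeR adjusted p = 0.000237) and miR-342-3p by 0.86 (adjusted p = 0.00454). miR-29a-3p fell by 0.52 (edgeR adjusted p = 0.0113) and miR-29c-3p by 0.93 (adjusted p = 0.00423), both of a family that targets DNMT3A and DNMT3B. Of the same family, miR-29b-3p was not called (log2 fold change -0.06, edgeR adjusted p = 0.733). miR-185-5p fell by 0.54 (edgeR adjusted p = 0.00623). With total-count scaling 1 of the 9, miR-126-3p, was called higher and 5 lower, with a median of -0.94, where 10.1% of all miRNAs were called higher and 42.1% lower and the median of all was -0.51.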

How the data were processed

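Small RNA libraries (NEBNext kit) of 3 non-transfected and 3 RARαS77A MDA-MB-231 samples were analysed, grouped by their labels. The authors deposited whole-number read counts per miRNA, not normalized, and a TPM column per library. The deposited TPM equals the count divided by the column total, with a largest difference of 4.74e-05, and has no length term. The submitters' processing notes name Bowtie without a version. Build, annotation, strand setting, treatment of multiply matching reads and a test for the sequencing were not given in the sources used here.

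Counts were tested with edgeR 4.0.16 in R 4.3.3 (TMM, filterByExpr with a minimum count of 10, glmQLFit and glmQLFTest without a block). The Benjamini-Hochberg adjusted p over all 506 miRNAs tested had to be under 0.05. Log2 ratios had 0.5 added to each count and were tested with a two-sided exact permutation test (scipy 1.17.1). Alternatives were DESeq2 1.42.0, limma 3.58.1 (voom, and log2 of TPM plus 1 or plus 10), other scalings, no filter, a replicate block and each library left out. The fits were tested on simulated data in which rises and falls were equally likely, which does not bear on which scaling is right. Totals per library, from 9019266 to 11338580 counts, make a count of 0 compatible with up to 3 counts, or 0.333 TPM at the lowest depth. No member had a near-identical row (counts within 5% in every library), and replicate libraries differed by more than sampling noise.

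All 6 arms are named, with miRNAs of equal or shifted seed, a list directed at DNA methyltransferases, the 3 closest profiles of each guide, and markers of other cells. Members and lists were chosen with earlier results of these data known. Loci are from GENCODE 29 on GRCh38, and sequences from RefSeq, which held 5 of the 6 arms.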

Additional observations from a re-analysis of the deposited data

How the results depend on the processing

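miR-148a-3p and miR-148a-5p kept their direction and call under all 17 alternatives, from 1.18 to 1.96 and from 0.28 to 1.84 on the log2 scale, the latter lowest on log2(TPM + 10), where the added 10 exceeds the level itself. With total-count scaling the other arms were at -0.64 (miR-148b-3p), -0.0079 (miR-148b-5p), -0.38 (miR-152-3p) and 0.59 (miR-152-5p). With limma on log2(TPM + 1) they were at -0.66, -0.023, -0.36 and 0.30, and on log2(TPM + 10) at -0.66, -0.014, -0.33 and 0.054. miR-148b-3p was at 0.13 with upper quartile scaling. With total counts without the 5 most abundant miRNAs, miR-148b-5p was at 0.33, miR-152-3p at -0.034 and miR-152-5p at 0.93. Without a filter on low counts miR-148b-5p was at 0.38 and miR-152-5p at 0.99. miR-148b-5p was at 0.53 with RLE scaling, and miR-152-5p at 1.16 with DESeq2 and at 1.44 with control replicate 3 as the only control, a setting chosen after seeing the data in which the lone control is assumed to vary like the other group. With 1 library left out, miR-148b-3p lay between -0.16 and 0.024, miR-148b-5p between 0.40 and 0.74, miR-152-5p between 0.88 and 1.41, and the log2 difference of the miR-148a arm ratio between -0.11 and 0.42. The count of arms called higher, 4, was then 2 to 3, and 2 with total counts of all miRNAs or of all but the 5 most abundant, without the filter, with both TPM settings and with the replicate block. The count called lower was 1 with total counts and both TPM settings, and 0 otherwise. Shares of all miRNAs called are given above only for edgeR with TMM or total counts, DESeq2 and limma-voom. Under the other settings the counts of arms have no share beside them and are no result about the family. The replicate block lost the calls of miR-148b-5p (0.55, adjusted p = 0.0829) and miR-152-5p (1.17, adjusted p = 0.0860) and no other. Deviations of same-numbered libraries correlated at 0.0353, 0.103 and 0.0165 over 506 miRNAs, so the numbers were not taken as pairs. The other 5 count ratios kept their direction under all 8 of their alternatives. Which scaling is right cannot be read from these counts. Depth limits miR-152-5p, with 6 to 15 counts, and miR-148a-5p, with 21 to 70.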
